A study of Peromyscus polionotus with 11 samples.

Results

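Kalrn, Itpka, Tpm1, Camk2a, Camk2b, Dlg4 and Homer1 encode proteins of the dendritic spine, the small protrusion of a neuron's dendrite that carries most excitatory synapses, and this is an account of their signal in 2 nuclei of the oldfield mouse brain at 2 day lengths. They were taken by gene symbol from the probe annotation of the array: all 7 genes are on it, with 15 of the 22626 probe sets tested (20380 of these carry a single symbol, for 12393 genes). The list was drawn up with results of these arrays known. Kalrn, Tpm1 and Itpka were already known to differ between the nuclei, and Kalrn also to be low in short days in the medial preoptic area, so the members' differences between the nuclei and that value of Kalrn are given as descriptions, with no p-value. Counts of such members past the threshold of the fit over all probe sets are part of that description and are no test of these genes.

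The arrays were hybridised with biotin-labelled total RNA of micropunches, small tissue cores, from Peromyscus polionotus. The 4 groups are the medial preoptic area in long days (3 samples, numbered 1 to 3) and short days (3 samples, 4 to 6), and the bed nucleus of the stria terminalis in long days (3 samples, 1 to 3) and short days (2 samples, 4 and 5). The medial preoptic area is a hypothalamic region of parental and sexual behaviour, and the bed nucleus a telencephalic relay between amygdala and hypothalamus. The labels give no sex, age, hours of light or treatment beyond the day length, and do not say whether a number used in both nuclei is the same mouse, so the p-values measure the spread between these samples.

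A spine is shaped by actin filaments, which are remodelled when the synapse is active. At its head lies the postsynaptic density, in which scaffold proteins hold glutamate receptors next to calcium-dependent kinases, and calcium entry through these receptors changes both the receptors and the actin. Many of these genes are known for strong expression in cortex, hippocampus and striatum and for weaker expression in the hypothalamus.

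Every array had a median intensity of 19, with quartiles of 13 to 14 and 33 to 35. On the first principal component, with 23.2% of the variance, the short-day medial preoptic array 6 lay at -31.2 at one end and the long-day bed nucleus array 1 at 25.4 at the other. These arrays also held the lowest and the highest values of Kalrn, Itpka (array 6 tied with array 4) and Tpm1, so results are given without them too. Markers of the punched tissue were measured beside the members. Preoptic and hypothalamic neuron markers (19 of 23 listed genes measured) had a summed intensity of 3518 to 4680 on the medial preoptic arrays and 2470 to 3145 on the bed nucleus arrays, with no overlap. This was not particular to preoptic markers, since general neuronal markers were apart in the same direction, at 4274 to 5572 against 3432 to 4228. Striatal neuron markers (13 of 19 measured) ran the other way, from 1817 to 3185 against 3276 to 4130. Brighter genes weigh more in these sums. By mean log2 intensity each of these lists overlapped between the nuclei. Preoptic markers were at 5.303 on the long-day bed nucleus array 2 and 5.299 on the long-day medial preoptic array 1. Striatal markers were at 5.75 on the long-day bed nucleus array 3 and 5.78 on the long-day medial preoptic array 1. Of the markers measured, 12 of the 19 preoptic and 11 of the 13 striatal ones had a mean above the array median.

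The members fell into a bright and a dim set. In 6 probe sets the mean over the 11 arrays was above 19: Kalrn 1436066_at, Itpka 1424037_at, Tpm1 1423049_a_at and 1423721_at, Camk2b 1448676_at and Homer1 1421768_a_at. The other 9 had means at or below the median, among them all those of Camk2a and Dlg4. Intensities are whole numbers, so that a step of 1 unit is worth 0.14 on the log2 scale for the dimmest probe set. The probes were designed for the house mouse, and levels of different probe sets were not compared with each other.

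Kalrn encodes kalirin, an exchange factor that activates Rac and enlarges spines. Its bright probe set read 69, 51 and 43 in the long-day medial preoptic area, 34, 39 and 20 in short days there, 121, 95 and 86 in the long-day bed nucleus, and 80 and 84 in short days there. All bed nucleus arrays lay above all medial preoptic arrays, and within each nucleus all short-day arrays lay below all long-day arrays. The group means were 54.3 ± 13.3 (SD, n = 3), 31.0 ± 9.85 (n = 3), 101 ± 18.2 (n = 3) and 82.0 ± 2.83 (n = 2) in the same order. The difference between the nuclei, bed nucleus minus medial preoptic area and averaged over the day lengths, was 1.18 ± 0.16 (SE) on the log2 scale, a ratio of 2.27. It was 0.90 ± 0.21 in long days and 1.46 ± 0.23 in short days.

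The further Kalrn probe sets, which share 1 source sequence, did not show this pattern. Probe set 1457899_at read 8 to 15 and 1442554_s_at read 8 to 12 over all arrays, under the array median throughout, and their differences between the nuclei were 0.25 ± 0.11 and 0.03 ± 0.12.

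Tpm1 encodes an alpha-tropomyosin, which lies along actin filaments and governs which proteins can bind them. Probe set 1423049_a_at read 314, 235 and 275 in the long-day medial preoptic area, 215, 233 and 169 in short days there, 910, 512 and 510 in the long-day bed nucleus, and 510 and 484 in short days there. The nuclei were again fully apart, and the long-day bed nucleus array 1 was far above the 4 others. The difference between the nuclei was 1.23 ± 0.14 on the log2 scale, a ratio of 2.35, and 1.10 without that array. It was 1.18 ± 0.19 in long days and 1.29 ± 0.21 in short days. Probe set 1423721_at, also bright, read 29 to 40 in the medial preoptic area and 35 to 43 in the bed nucleus, so these ranges overlapped, and differed by 0.23 ± 0.10. Probe set 1456623_at stayed at 10 to 12. The 3 probe sets come from different transcript sequences, and the files do not say which isoforms each reads.

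Itpka encodes inositol-trisphosphate 3-kinase A, an actin-bundling enzyme of spines that also removes the calcium-releasing messenger inositol trisphosphate. It has 1 probe set, which read 33, 29 and 30 in the long-day medial preoptic area, 22, 28 and 22 in short days there, 81, 60 and 38 in the long-day bed nucleus, and 42 and 54 in short days there. The nuclei did not overlap, while the long-day bed nucleus arrays spread more widely than any other group. The log2 difference between the nuclei was 0.95 ± 0.15, a ratio of 1.93, as the mean of 0.90 ± 0.20 at the long and 0.998 ± 0.22 at the short day length.

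**Figure D1:**
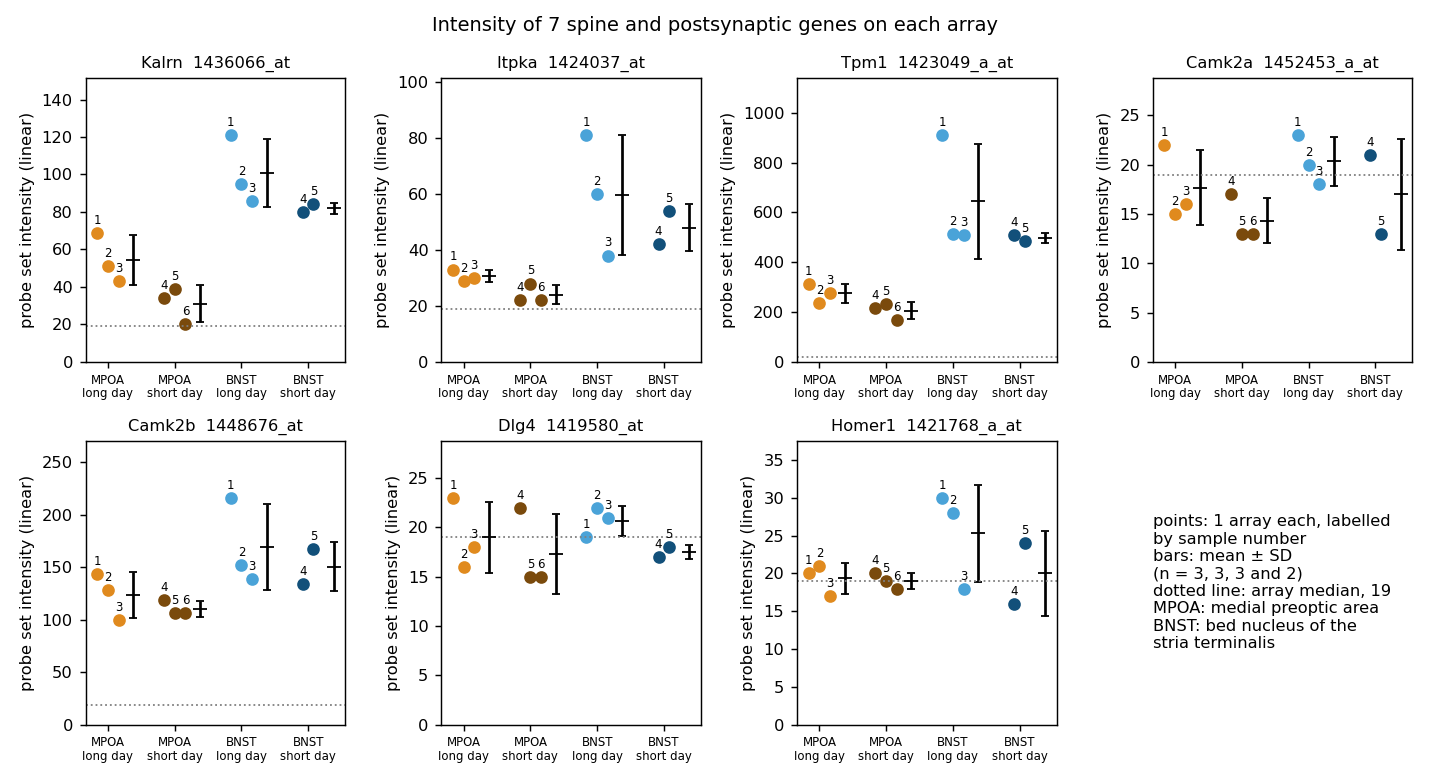
Intensity on each array (linear vertical axis from 0) of the probe set with the highest mean of each of the 7 genes, by group; points are arrays labelled by sample number, bars the mean and SD, and the dotted line the array median of 19. Kalrn, Itpka and Tpm1 are higher on all bed nucleus (BNST) than on all medial preoptic (MPOA) arrays, whereas Camk2a, Dlg4 and Homer1 lie around the median in all groups.

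Camk2a and Camk2b encode the alpha and beta subunits of calcium/calmodulin-dependent kinase II, the main kinase of the postsynaptic density, of which the beta subunit also binds actin. Camk2b read 143, 128 and 100 in the long-day medial preoptic area, 119, 106 and 106 in short days there, 216, 152 and 139 in the long-day bed nucleus, and 134 and 167 in short days there. The nuclei overlapped, since the highest medial preoptic value (143) was above the 2 lowest bed nucleus values. The difference was 0.44 ± 0.12, and it had the same size in long (0.44 ± 0.17) and short days (0.44 ± 0.19). Camk2a read 13 to 22 in the medial preoptic area and 13 to 23 in the bed nucleus, across the array median, with a difference of 0.22 ± 0.13.

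Dlg4 encodes PSD-95, the scaffold that anchors glutamate receptors, and Homer1 a scaffold that links metabotropic glutamate receptors to inositol trisphosphate receptors and Shank proteins. The 3 Dlg4 probe sets share 1 source sequence and read 13 to 23 over all arrays, with differences between the nuclei of 0.09 ± 0.12, 0.24 ± 0.11 and 0.08 ± 0.11. The Homer1 probe sets differed among themselves. Probe set 1421768_a_at read 17 to 21 in the medial preoptic area and 16 to 30 in the bed nucleus (0.20 ± 0.13), 1425710_a_at read 10 to 15 and 13 to 20 (0.44 ± 0.13), and 1425671_at read 9 to 13 and 9 to 11 (-0.27 ± 0.11), the single member probe set with a negative difference. At these intensities neither Dlg4 nor Homer1 showed a difference beyond the overlap of the arrays.

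Taken over the 15 probe sets, 14 had a positive difference between the nuclei, with a median of 0.23 against 0.00 over all probe sets. In the fit over all probe sets 3 of 15 passed the threshold, an adjusted p of 0.05 by limma, those of Kalrn, Tpm1 and Itpka, where 1.03% of all probe sets passed. With the day lengths apart, 1 passed in long days (Tpm1, against 0.128% of all) and 2 in short days (Kalrn and Tpm1, against 0.354%). Dropping medial preoptic array 2 or 3 or bed nucleus array 1 left 0 in long days, and dropping bed nucleus array 4 or 5 left 0 in short days. Kalrn, Tpm1 and Itpka had all bed nucleus arrays above all medial preoptic arrays, as had 0.703% of all probe sets. These members were chosen on this difference, and the counts carry no support. Without the arrays 6 and 1 named above, the differences were 0.97 for Kalrn, 1.03 for Tpm1 and 0.79 for Itpka.

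**Figure D2:**
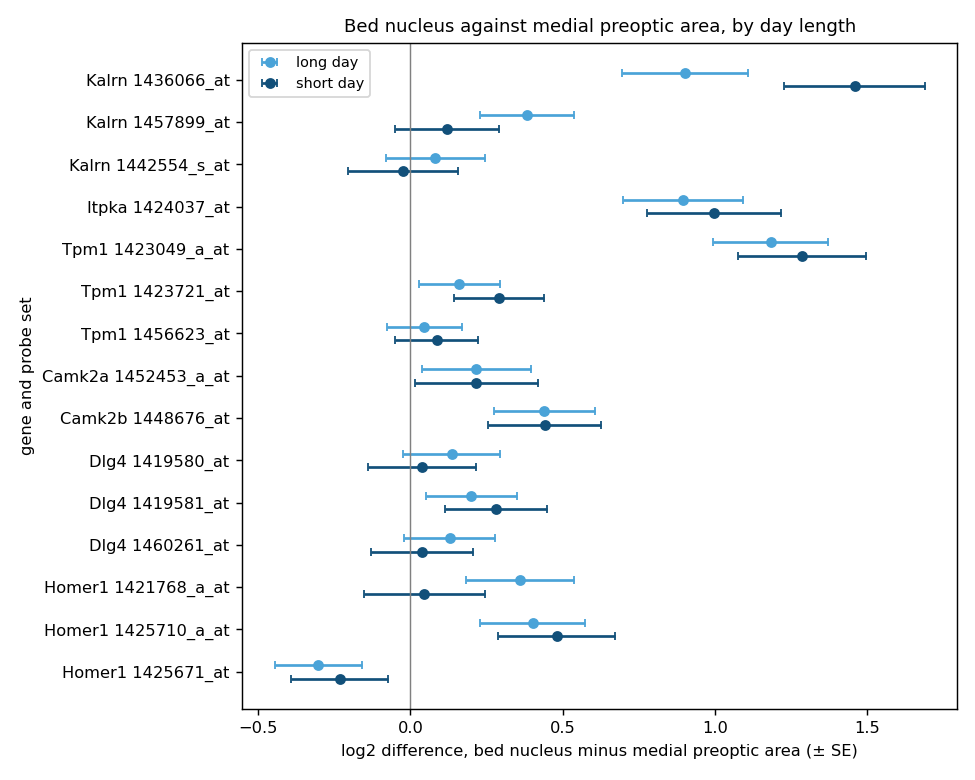
Log2 difference, bed nucleus minus medial preoptic area, with its SE for the 15 probe sets of the 7 genes, in long and short days. Kalrn 1436066_at, Itpka and Tpm1 1423049_a_at lie between 0.90 and 1.46, and the further probe sets of Kalrn and Tpm1 lie nearer 0.

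Levels of cell type markers were set beside these genes. Of the 13 striatal markers 12 had a higher mean in the bed nucleus, with a median difference of 0.55, and their mean log2 intensity was highest on the long-day bed nucleus array 1 (6.25) and lowest on the short-day medial preoptic array 6 (5.21), the arrays with the highest and lowest Kalrn and Tpm1. The long-day bed nucleus arrays 2 and 3 had striatal means of 5.80 and 5.75, where Kalrn read 95 and 86. The short-day arrays 4 and 5 had striatal means of 5.93 and 6.02, where Kalrn read 80 and 84. Itpka read 60, 38, 42 and 54 on these arrays, and Tpm1 1423049_a_at 512, 510, 510 and 484. The medial preoptic arrays 1 to 6 had striatal means of 5.78, 5.54, 5.57, 5.26, 5.52 and 5.21. Kalrn read 69, 51, 43, 34, 39 and 20 on those. Of the 19 preoptic markers 17 had a lower mean in the bed nucleus (median -0.19). Their mean log2 intensity was lowest on the long-day bed nucleus array 1 (5.08) and highest on the short-day medial preoptic array 6 (5.57). Markers of excitatory telencephalic neurons (6 of 14 measured) had a median difference of 0.09, and general neuronal markers (15 of 15) one of -0.23. Oligodendrocyte markers had a median of 0.30, and astrocyte, microglial, vascular and ependymal markers medians from -0.02 to 0.05. The ependymal median was 0.27 in long days and -0.12 in short days. In the bed nucleus 6 of 7 ependymal markers were lower in short than in long days (median -0.27). Their summed intensity there was 157 to 158 in short days and 179 to 211 in long days. The part of the punched tissue in the members' differences was not tested, and in such punches fewer cells of a type cannot be told apart from less RNA per cell.

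**Figure D3:**
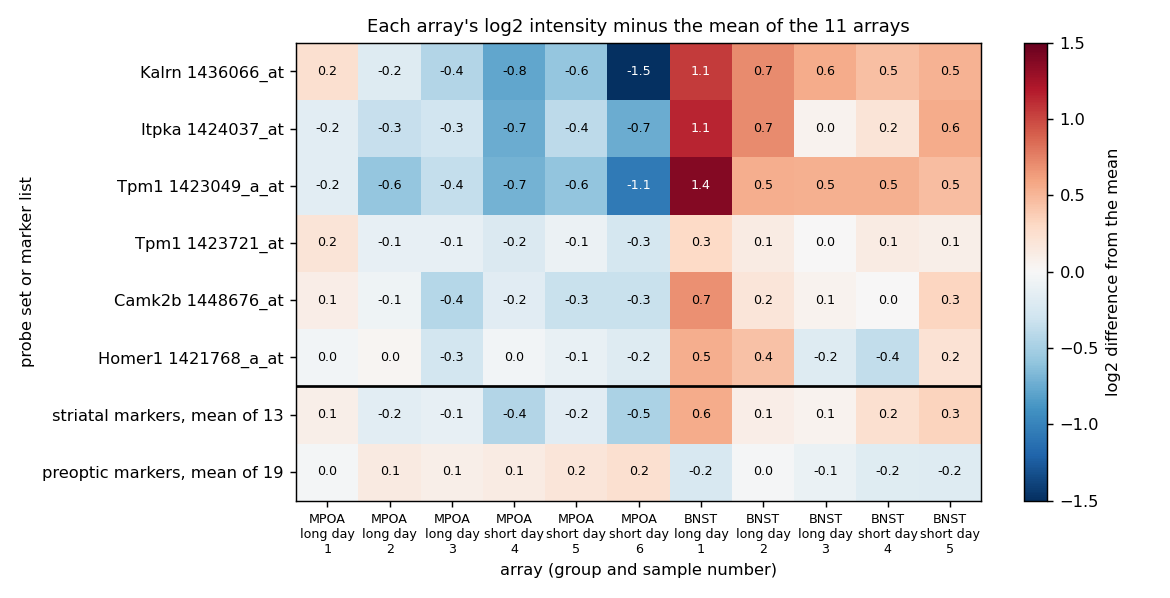
Log2 intensity of each array minus the mean of the 11 arrays (colour and printed number) for the 6 bright probe sets and, under the line, for the mean of 13 striatal and of 19 preoptic neuron markers. Kalrn, Itpka, Tpm1 and the striatal markers are highest on the long-day bed nucleus array 1, and Kalrn, Tpm1 and the striatal markers lowest on the short-day medial preoptic array 6.

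The correlation of log2 intensity over the 11 arrays takes in both differences between the nuclei and the spread within them. By it the genes with a pattern most like Kalrn were Arpp19 (r = 0.98), Prkcb (r = 0.98) and Celf2 (r = 0.96). For Tpm1 they were Ivns1abp (r = 0.99), Rasd2 (r = 0.98), which is also among the listed striatal markers, and Pmepa1 (r = 0.98). For Itpka they were Rbfox1, Mxd1 and Rbms1 (each r = 0.96). For Camk2b they were Epha4 (r = 0.98), Neto1 (r = 0.94) and Dnmt3a (r = 0.92). For Homer1 they were Gigyf1 (r = 0.93), Atg12 (r = 0.91) and Lrp6 (r = 0.91), for Camk2a Kdm1a, Pdxdc1 and Cnih2 (r = 0.90 to 0.91), and for Dlg4 Rbm14, 1110004F10Rik and Cttnbp2nl (r = 0.87 to 0.93). Each value is among the highest of at least 10371 probe sets and describes these arrays.

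Day length was the second comparison, and no member passed it in either nucleus. In the medial preoptic area 11 of 15 probe sets had a lower mean in short than in long days, with a median log2 difference of -0.14 against 0.00 over all probe sets, and 0 passed with limma, as did 0% of all probe sets. Leaving Kalrn aside, 1 member, Tpm1 1423049_a_at, was under an unadjusted p of 0.05, where 3.50% of all probe sets were. Kalrn was at -0.84 ± 0.21 there, and -0.55 without array 6. Tpm1 1423049_a_at was at -0.42 ± 0.19 (adjusted p = 1, limma; 95% interval -0.81 to -0.03), and -0.29 without array 6. Itpka was at -0.36 ± 0.20 (adjusted p = 1; -0.77 to 0.05). For Kalrn, Tpm1 and Itpka every short-day array was below every long-day array, as in 2.55% of all probe sets, but for Tpm1 by 2 units (233 against 235) and for Itpka by 1 (28 against 29).

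The other members showed smaller values. Camk2a was at -0.29 ± 0.18, Camk2b at -0.15 ± 0.17 and Tpm1 1423721_at at -0.17 ± 0.13. The Dlg4 probe sets lay between -0.14 and -0.01 and those of Homer1 between -0.23 and 0.10.

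In the bed nucleus 12 of 15 probe sets had a negative value (median -0.16 against -0.01 over all), and 0 passed with limma, where 0.0442% of all probe sets did. At an unadjusted p of 0.05 there were 0, against 12.7% of all. The values were -0.28 ± 0.23 for Kalrn (adjusted p = 0.654), -0.32 ± 0.21 for Tpm1 1423049_a_at (adjusted p = 0.558), -0.26 ± 0.22 for Itpka (adjusted p = 0.670) and -0.34 ± 0.20 for Homer1 1421768_a_at (adjusted p = 0.502). The long-day array 1 carried much of these sizes. Without it Kalrn was at -0.14, Tpm1 at -0.041 and Itpka at -0.0038, and Camk2b went from -0.15 to 0.041. All short-day arrays were below all long-day arrays in 2 of 15 probe sets, of Kalrn and Dlg4, as in 13.5% of all.

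Averaged over the nuclei 0 of 15 passed (0.0133% of all probe sets did), and, leaving Kalrn aside, 3 were under an unadjusted p of 0.05 against 9.02% of all. Kalrn, whose medial preoptic value was known when it was chosen, was at -0.56 ± 0.16. Tpm1 1423049_a_at was at -0.37 ± 0.14 (adjusted p = 0.474), Itpka at -0.31 ± 0.15 (adjusted p = 0.552) and Camk2a at -0.29 ± 0.13 (adjusted p = 0.536). Without arrays 6 and 1, Kalrn was at -0.35, Tpm1 at -0.16 and Itpka at -0.15.

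The effect of day length was not shown to differ between the nuclei: 0 of 15 passed with limma (0% of all probe sets). Leaving Kalrn aside, 0 were under an unadjusted p of 0.05 against 8.34% of all. Kalrn is given as a description, since this comparison holds its medial preoptic value, which was known when it was chosen. Its value was less negative in the bed nucleus, by 0.56 ± 0.31. This was 0.27 without medial preoptic array 6, 0.70 without the long-day bed nucleus array 1 and 0.41 without both. For Tpm1 1423049_a_at it was 0.10 ± 0.28 and for Camk2b 0.00 ± 0.25, whose intervals, -0.49 to 0.69 and -0.52 to 0.52, still hold sizeable effects of either sign.

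**Figure D4:**
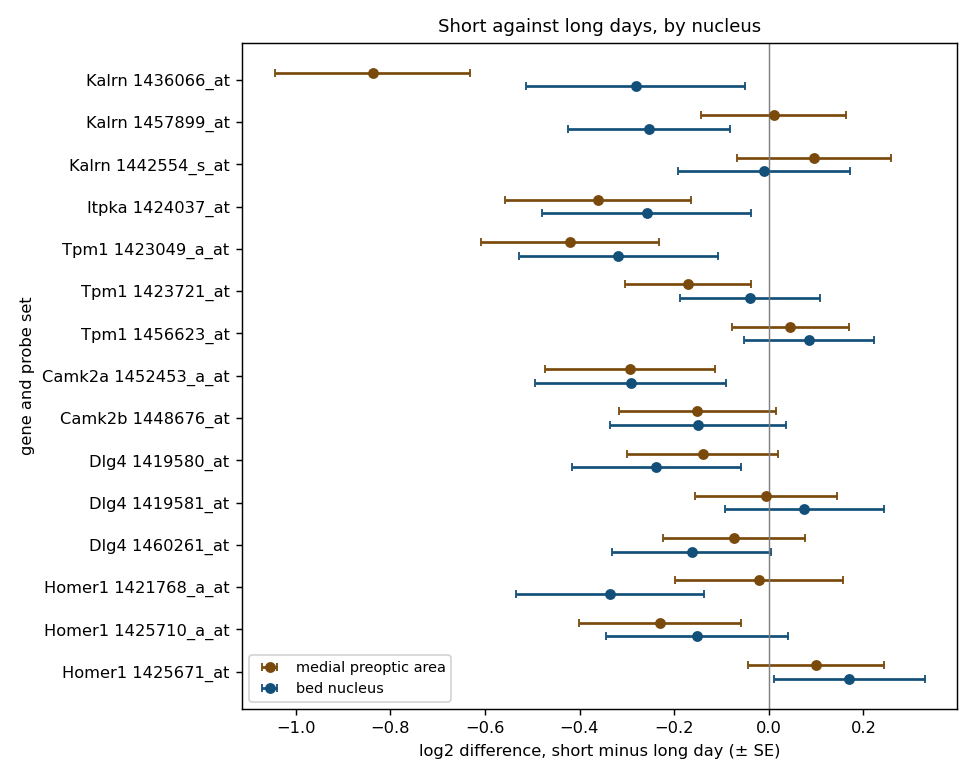
Log2 difference, short minus long day, with its SE for the 15 probe sets in each nucleus. Kalrn 1436066_at in the medial preoptic area, at -0.84, lies farthest from 0, and the 6 bright probe sets have negative values in both nuclei.

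The order of the groups was alike among the bright probe sets. In 6 of 6 the long-day bed nucleus had the highest and the short-day medial preoptic area the lowest mean, whereas over all probe sets above the median these groups were highest in 36.6% and lowest in 25.3%. Since Kalrn, Tpm1 and Itpka, which supply 4 of the 6, were chosen for differing between the nuclei, and Kalrn also for its low short-day value, this order is partly fixed by the choice and nothing is read from it. The neighbours in that order, long and short days within a nucleus, did not differ beyond the test's threshold in any of them. In the medial preoptic area the striatal markers had a lower mean in short days in 13 of 13 genes (median -0.32), and in the bed nucleus in 6 of 13 (median 0.01). Their part in the members' values was not tested.

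Other genes of the spine and the postsynaptic density were taken from 3 lists, of which 100 of 136 genes were measured, 1 probe set each. Between the nuclei 6 of 100 passed with limma, against 1.27% of all genes, 5 higher and 1 lower in the bed nucleus. The lists were chosen with earlier results of these data known, so this count is a description and carries no support. Of the list genes, 48 of 58, 17 of 22 and 16 of 20 had a mean above the array median. The median difference of the 100 genes was 0.03 against 0.00 over all genes.

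Of 58 actin genes 33 were higher and 25 lower in the bed nucleus (median 0.01), and Baiap2, which encodes the Rac effector IRSp53, was the 1 that passed. It read 135, 110 and 103, then 73, 99 and 68 in the medial preoptic groups, and 196, 139 and 129, then 155 and 131 in the bed nucleus (0.63 ± 0.13, adjusted p = 0.0200, limma). Its values overlapped between the nuclei. Its 3 other probe sets were at 0.18 to 0.39 and did not pass. Among relatives of the members, Trio, the closest to Kalrn, was at -0.17 ± 0.12, the other tropomyosins Tpm2, Tpm3 and Tpm4 at -0.02 ± 0.14, -0.04 ± 0.10 and -0.22 ± 0.09, and the kinase Itpkb at -0.16 ± 0.11. None of these 5 passed with limma, and whether they differ from the members was not tested.

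Of 22 scaffold genes 13 were higher and 9 lower (median 0.12). Dlg2, a PSD-95 relative also called PSD-93, passed at 0.60 ± 0.11 (adjusted p = 0.0110, limma). It read 96 to 138 on the medial preoptic and 145 to 208 on the bed nucleus arrays. All bed nucleus arrays were thus above all medial preoptic arrays, as in 0.703% of all probe sets. A dim second Dlg2 probe set was at 0.05. Shank3, a scaffold that binds Homer and the actin cytoskeleton, passed at 0.51 ± 0.12 (adjusted p = 0.0485, limma). Its values overlapped between the nuclei, with up to 116 on the medial preoptic and down to 95 on the bed nucleus arrays. Dlg1 (-0.16 ± 0.13), Dlg3 (0.24 ± 0.11), Homer2 (-0.13 ± 0.11) and Homer3 (0.32 ± 0.12) did not pass.

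Of 20 genes of calmodulin kinases, their partners and phosphatases 12 were higher and 8 lower (median 0.04). Camk2g, the gamma subunit of the same kinase as Camk2a and Camk2b, fell by 0.75 ± 0.11 on the log2 scale between the medial preoptic area and the bed nucleus (adjusted p = 9.8e-04, limma). It read 244, 328, 261, 274, 352 and 300 on the medial preoptic arrays 1 to 6 and 168, 178, 186, 190 and 151 on the bed nucleus arrays 1 to 5. These did not overlap, and the share of all probe sets lying wholly lower in the bed nucleus is not given here. The difference of Camk2b had the other sign, at 0.44 ± 0.12, but its arrays overlapped between the nuclei. A second, dimmer Camk2g probe set was at -0.12 and did not pass, and Camk2d, the delta subunit, was at -0.22 ± 0.10 (adjusted p = 0.382). The phosphatase catalytic subunits Ppp1ca (0.49 ± 0.11, adjusted p = 0.0256, limma) and Ppp3ca (0.73 ± 0.17, adjusted p = 0.0484) were higher in the bed nucleus. However, 2 further Ppp3ca probe sets gave 0.32 and -0.07 and did not pass. Ppp3ca overlapped between the nuclei, with up to 92 on the medial preoptic and down to 76 on the bed nucleus arrays. Ppp1ca did not overlap (66 to 101 against 113 to 134), as in 0.703% of all probe sets.

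Camk2g kept its call in each of 22 alternatives, and its adjusted p was at most 0.0189. The other 5 calls were lost in some alternatives: that of Dlg2 in 2, of Baiap2 in 7, of Ppp1ca in 7, of Shank3 in 11 and of Ppp3ca in 12 of 22. Dropping array 5 of the short-day bed nucleus took the adjusted p of Dlg2 to 0.108, and dropping arrays 6 and 1 together to 0.0817. Shank3 lost its call when any array other than 2 or 5 of the medial preoptic area was dropped, with an adjusted p of up to 0.241 without bed nucleus array 5. Baiap2 lost it without medial preoptic array 2, 3 or 4 or bed nucleus array 1, 4 or 5 (up to 0.126), Ppp1ca without medial preoptic array 3 or 4 or bed nucleus array 1, 4 or 5 (up to 0.123), and Ppp3ca without medial preoptic array 2, 3, 5 or 6 or bed nucleus array 1, 3, 4 or 5 (up to 0.229).

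**Figure D5:**
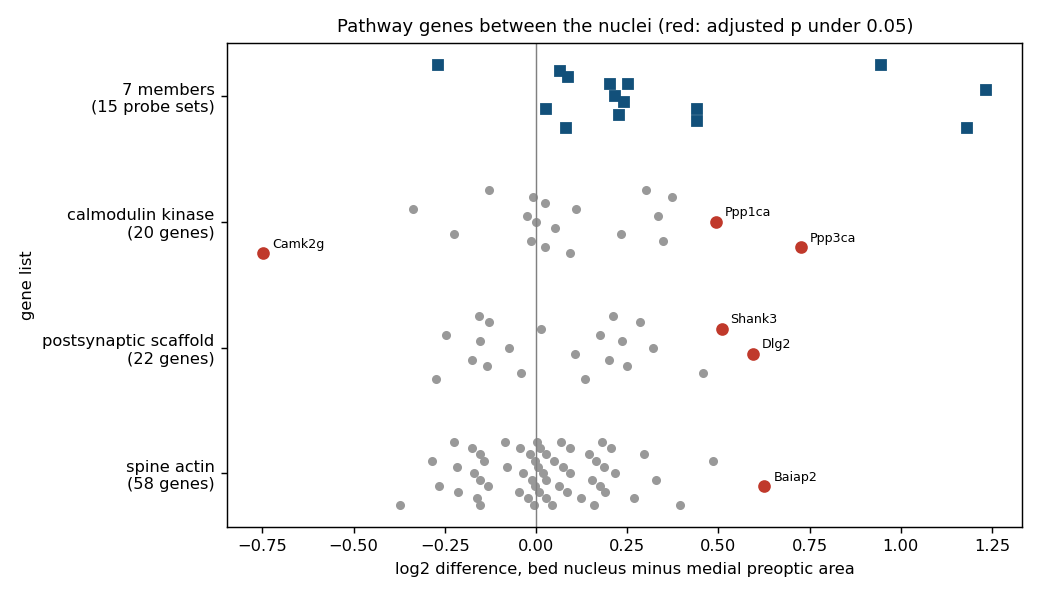
Log2 difference, bed nucleus minus medial preoptic area, of 100 further genes in 3 lists (circles, 1 probe set per gene, red where the adjusted p was under 0.05) and of the 15 probe sets of the 7 members (squares, shown with no test). Camk2g, at -0.75, is the 1 gene that passed with a lower signal in the bed nucleus.

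For day length 0 of the 100 genes passed in either nucleus, in their mean or in the difference between the nuclei. At an unadjusted p of 0.05 there were 12 in the bed nucleus, 5 in the medial preoptic area, 11 in the mean and 9 in the difference. The shares of all probe sets were 12.7%, 3.50%, 9.02% and 8.34% in that order. These shares take in every probe set, dim ones too, whereas each list gene stood with its brightest, so the bases are unlike. In the medial preoptic area 69 of 100 had a lower mean in short days (median -0.05), and in the bed nucleus 67 of 100 (median -0.08), where 50.2% and 55.2% of all genes did. The smallest p in the medial preoptic area among actin genes was that of Baiap2 (-0.55 ± 0.17, adjusted p = 1), and in the bed nucleus that of Trio, at 140, 229 and 147 on the long-day and 96 and 107 on the short-day arrays (-0.73 ± 0.17, adjusted p = 0.106, limma). Shank3 had the smallest p among scaffold genes in both nuclei, at -0.32 ± 0.16 and -0.48 ± 0.18 (adjusted p = 1 and 0.270). Among the kinase genes it was Camkv, which encodes a kinase-like protein without known activity, at 0.35 ± 0.13 in the medial preoptic area (adjusted p = 1), and Inpp5a, an inositol trisphosphate phosphatase, at -0.48 ± 0.14 in the bed nucleus (adjusted p = 0.162).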

How the data were processed

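The authors deposited linear intensities per probe set as whole numbers, made with RMA version 3.4 per the submitters' processing notes; what else was done is not given in the sources used here. Gene names came from the platform annotation. After 64 control probe sets were set aside, the intensities, none of them 0, were log2-transformed without a pseudocount. The 4 group means were fitted as a linear model on 11 arrays and 22626 probe sets (limma 3.58.1, lmFit and eBayes, R 4.3.3; 7 residual and 12.9 prior degrees of freedom), with two-sided tests and Benjamini-Hochberg adjustment over all probe sets. Members and gene lists were chosen with earlier results of these data known. Named outside the members were the list genes that passed, up to 8 per list and comparison, or else the 2 with the smallest p; a member's paralogs were added after their values were seen. The fit was tested on simulated data. The number of arrays limits the precision, and 51.1% of all values were at or under 19. Same-numbered arrays of the nuclei did not deviate together (correlations from -0.03 to 0.07, 5 pairs), so no pairing was used. The alternatives were array weights, a trended and robust prior, quantile normalization, median centring, leaving out dim probe sets, a threshold of 0.10, 1 probe set per gene, noise that undoes the rounding, a pseudocount of 10, arrays of 1 nucleus or day length alone, each array left out, and a block on the sample number; leaving out both arrays that stood apart was added after seeing the data.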

Additional observations from a re-analysis of the deposited data

How the results depend on the processing

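The counts of member probe sets called were the same as reported in each alternative run for 5 of the 7 comparisons: 0 for the 4 day length comparisons, and 3 for the nuclei averaged over day length. Between the nuclei in long days the count of 1 became 3 with array weights and with the replicate block, 2 at a threshold of 0.10, 0 with the long-day arrays alone, and 0 to 2 with 1 array left out. In short days the count of 2 became 0 with the short-day arrays alone, became 3 in 6 alternatives in which Itpka passed too, and ran from 0 to 3 with 1 array left out; it was 0 without either short-day bed nucleus array, which leaves 1 array in that group, assumed to vary like the others. The sample number is shared by the nuclei but pairs nothing in the labels; 1 of 5 numbers matched its own best, and the block changed no other member count, while Shank3 (adjusted p = 0.0621) and Ppp1ca (adjusted p = 0.0735) lost their calls in it.

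Some values that passed no test changed sign. For the day length effect in the bed nucleus, Tpm1 1423721_at became 0.040 without long-day array 1 and medial preoptic array 6, and Camk2b 0.041; with quantile normalization Camk2b was at 0.019. With 1 array left out they ran from -0.11 to 0.040 and from -0.31 to 0.041. For the difference of the day length effects, Itpka ran from -0.19 to 0.36, Tpm1 1423049_a_at from -0.038 to 0.38 and Camk2b from -0.16 to 0.19 with 1 array left out; with the replicate block Tpm1 was at -0.033 and Camk2b at -0.026, and Camk2b was at -0.0036 with rounding undone and -0.00094 with the pseudocount. The causes were not tested.

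Over all probe sets the number called ran from 70 to 402 around 233 between the nuclei, from 2 to 66 around 29 in long days, from 0 to 177 around 80 in short days, from 0 to 38 around 10 for day length in the bed nucleus, from 1 to 6 around 3 for its mean, and from 0 to 5 and 0 to 1 where it was 0. Signal near the array median limits what Camk2a, Dlg4 and Homer1 can show.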
